A study of Mus musculus with 5 samples.

Results

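The region examined here is a stretch of mouse chromosome 5 that holds the genes Cux1 and Myl10 and a large number of EBF1 sites. Its members are the sites of the deposited EBF1 list whose centre lies inside either RefSeq gene span (GRCm38), between the genes, or within 100 kb of them. That rule gave 32 of 7494 sites (0.427%), from 136148135 to 136801857. The region was chosen by the number and closeness of its sites in this same list, with the order of site classes in view. Counts, spacing and classes are therefore given as a description, with no test.

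The series holds 5 ChIP-seq libraries from mouse pro-B cells, which are committed to the B lineage but have no B-cell receptor yet. All were made from fetal liver cells that lack Ebf1 (Ebf1-/-) and received an EBF1 form by transduction, so the factor came from a vector and not from its own gene. With wild-type EBF1 (EBF1 wt) the groups are an input without antibody for the EBF1 ChIP, a ChIP with anti-EBF1 (wt_a-EBF1), and an input for the BRG1 ChIP. With the form called EBF1 YmA they are a ChIP with anti-EBF1 and a ChIP with anti-Brg1, an antibody against the motor subunit of a chromatin remodeller. Each group is 1 library, and 1 library, the anti-EBF1 ChIP with EBF1 wt, entered with a processed file. The other libraries were not analysed here. Neither the age nor the number of the animals is stated in the sources used here.

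The file lists positions, each 300 bp wide, and 1 of 3 classes per site: CTD-ind, YmA-ind or YmA-dep. The sources used here do not say how the classes were assigned or what their names mean, so they serve as labels only. No height, score or read count is given per site. The strength of a site and the depth behind it are unknown, and no expression was measured, so pro-B markers could not be checked. Sites are not replicates of a condition.

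EBF1 (early B-cell factor 1) is a transcription factor that B-lymphocyte development requires. It binds DNA as a dimer at a palindromic motif, and can bind sites in closed chromatin. Cux1 encodes a CUT-domain homeobox protein, known as CCAAT displacement protein, a regulator of transcription with several DNA-binding domains. Myl10 encodes a regulatory light chain of myosin, and one of its listed synonyms, PLRLC, refers to precursor lymphocytes, in which this chain was described. The 2 genes lie head to head. Cux1 is on the minus strand with its listed start at 136565981, and Myl10 is on the plus strand with listed starts at 136693146, 136693676 and 136694177. The space between them is thus upstream of both.

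A promoter was under a site at 1 of the 13 listed gene starts of the region, that of Prkrip1, a neighbour of Cux1. Over all listed starts, 2.07% had a site that overlapped the 300 bases around them. The sequences below show the promoter that carried a site and those of the 2 genes for which the region is named, which did not. Each is the 250 bases before the listed start, 5′ to 3′, from the RefSeq promoter table (GRCm38.p6). For Prkrip1 (minus strand, chr5:136198955-136199204) the capitals mark the 136 bases inside the CTD-ind site. For Cux1 (minus strand, chr5:136565982-136566231) and for the first listed start of Myl10 (plus strand, chr5:136692896-136693145) capitals mark the core letters of the EBF motif, CCCNNGGG.
Prkrip1: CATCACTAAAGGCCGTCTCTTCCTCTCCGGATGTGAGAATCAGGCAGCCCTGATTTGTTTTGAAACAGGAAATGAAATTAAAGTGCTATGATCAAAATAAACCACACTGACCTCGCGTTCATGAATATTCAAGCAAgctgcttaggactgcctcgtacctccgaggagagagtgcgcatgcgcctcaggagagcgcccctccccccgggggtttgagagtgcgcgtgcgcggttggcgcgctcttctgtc
Cux1: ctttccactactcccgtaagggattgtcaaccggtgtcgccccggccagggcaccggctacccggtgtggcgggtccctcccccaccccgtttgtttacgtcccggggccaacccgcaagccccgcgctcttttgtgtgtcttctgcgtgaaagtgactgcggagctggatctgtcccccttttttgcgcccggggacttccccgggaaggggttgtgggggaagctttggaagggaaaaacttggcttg
Myl10: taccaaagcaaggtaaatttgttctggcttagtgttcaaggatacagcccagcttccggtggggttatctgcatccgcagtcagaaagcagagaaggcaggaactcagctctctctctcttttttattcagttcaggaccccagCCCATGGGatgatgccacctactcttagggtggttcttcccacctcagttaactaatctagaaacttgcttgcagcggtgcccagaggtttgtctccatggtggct

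The full palindrome searched is CCCNNGGG with a T before it and an A after it, and both forms read the same on both strands. It was in none of these windows when the 50 bases after the start were searched too. Of all 32851 listed promoter windows, 0.904% held it and 13.7% held the core alone or within it. Among the 680 windows that overlapped an EBF1 site the shares were 11.2% and 46.3%. The Myl10 window has 1 core, CCCATGGG, which starts 106 bases before the listed start, and the Cux1 window has none. The window at the second listed start of Myl10 has 2 cores and the one at the third has none. In the Prkrip1 window 3 overlapping cores lie within 49 bases of the start, outside the part that the site covers. The rest of that site, and the other 31 sites, lie outside the sequences used here, so their motifs were not searched.

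The 32 sites were spread unevenly. The 121.3 kb between the gene spans held 14, the 319 kb of Cux1 held 6, and the 12966 bp of Myl10 held 2. The 100 kb below Cux1 held 4 and the 100 kb above Myl10 held 6. Per 100 kb this is 11.5 sites in the space between, 1.88 in Cux1 and 15.4 in Myl10. The whole region had 4.90 per 100 kb, against 0.401 on chromosome 5 and 0.292 over all chromosomes with sites. The site nearest to the lower limit inside the region was 81.0 kb from Cux1 and the next one out was 152.1 kb away. At the upper limit these distances from Myl10 were 55.4 and 135.2 kb.

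**Figure D1:**
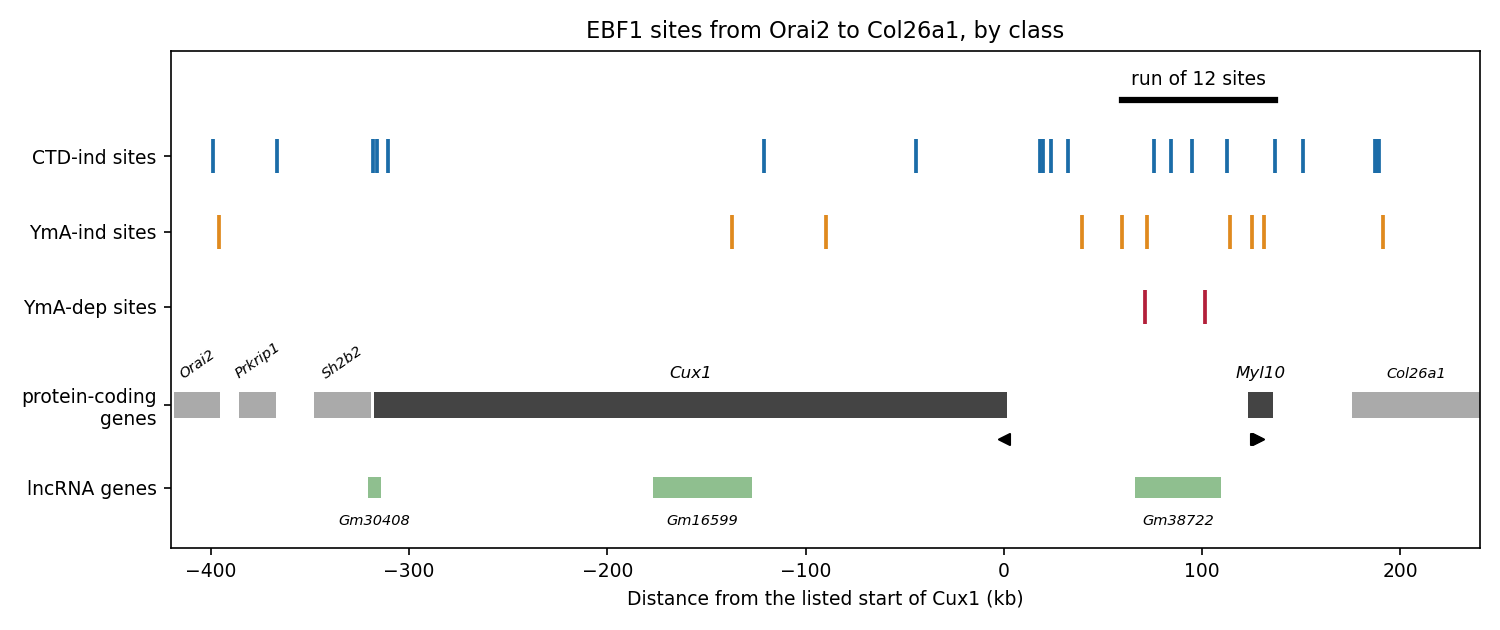
EBF1 sites (vertical marks, 1 row per class) and gene spans (bars) by distance from the listed start of Cux1 in kb, with arrowheads at the listed starts of Cux1 and Myl10 that point in the direction of transcription. The bar of Col26a1 runs past the right edge. The marks are dense upstream of both genes, where the run of 12 sites begins, and sparse across Cux1, and the 2 YmA-dep sites lie between the genes.

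At the far end of Cux1, where transcription ends, lay 3 CTD-ind sites in 7.73 kb. They started at 136247655, 136249728 and 136255080, with gaps of 2.07 and 5.35 kb between centres. The first was centred 0.330 kb outside the Cux1 span and the other 2 inside it. The first and second also lay in Gm30408, a long noncoding RNA gene on the plus strand, and the second was centred 0.921 kb downstream of a listed start of that gene. Sh2b2, which encodes an SH2-domain signalling adaptor, is on the minus strand and starts next to this spot. It had no assigned site, since Cux1 was nearer to the first of the 3, but all 3 lay within 10 kb of it. That first site was also the nearest to the listed start of Sh2b2, at 2.865 kb.

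After these 3, the body of Cux1 was empty for 173 kb, the widest gap of the region. Then followed 4 single sites of alternating class: YmA-ind at 136428532, CTD-ind at 136444686, YmA-ind at 136476332 and CTD-ind at 136521529. Their gaps were 16.2, 31.6 and 45.2 kb, so none was within 12500 bp of another. The YmA-ind site at 136428532 lay in the noncoding gene Gm16599 as well. Mir721, a microRNA gene inside Cux1, was 52.9 kb from the nearest site.

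The listed start of Cux1 sat in a gap of 62.5 kb. The nearest site downstream was centred 44.3 kb inside the gene and the nearest upstream 18.2 kb before the start. The upstream one opened a group of 5 sites in 21.4 kb, of which the first 4 were CTD-ind (136584037, 136585322, 136589652 and 136598011) and the last YmA-ind (136605116). Their gaps were 1.285, 4.33, 8.36 and 7.105 kb. The group lay 18.2 to 39.3 kb upstream of the Cux1 start. No listed gene held any of these 5 sites.

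A gap of 20.5 kb separated that group from the run of 12 sites, the longest in the list when neighbours closer than 12500 bp are joined. It spanned 77.4 kb, from 136625642 to 136703076, with 5 CTD-ind, 5 YmA-ind and 2 YmA-dep sites. The first member was a YmA-ind site at 136625642, 67.4 kb before the first Myl10 start. Then came a YmA-dep site at 136636836 and a YmA-ind site at 136637827, whose centres were 0.991 kb apart. Next stood 3 CTD-ind sites at 136641337, 136649973 and 136660711, with gaps of 3.51, 8.64 and 10.7 kb.

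The second YmA-dep site of the run started at 136667102, 25.9 kb before the first Myl10 start. A CTD-ind site at 136678597 and a YmA-ind site at 136679642 followed, 1.045 kb apart. Both sites inside Myl10 were YmA-ind. One, at 136691024, was centred 1.97 kb before the first listed start, in the part of the span that precedes it, and the other, at 136696946, was 2.92 kb after the third. The run closed with a CTD-ind site at 136702777, centred 1.07 kb beyond the end of Myl10. The next site, CTD-ind at 136716844, was 14.1 kb further and so fell outside the run, while the widest gap inside it was 11.5 kb.

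Of the 12 sites in the run, 6 lay in Gm38722, a noncoding RNA gene of 43.1 kb on the plus strand between Cux1 and Myl10. These were 3 CTD-ind, 1 YmA-ind and both YmA-dep sites. The site nearest to a listed start of Gm38722 was the YmA-dep site 2.95 kb downstream of it. Between the listed start of Cux1 and the first of Myl10, a distance of 127.2 kb, lay 15 sites: 8 CTD-ind, 5 YmA-ind and 2 YmA-dep.

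The remaining sites belonged to the neighbours. Orai2, the gene of a calcium channel subunit, held a CTD-ind site at 136166936 and a YmA-ind site at 136170059, the latter 0.447 kb downstream of its listed start. The CTD-ind site at Prkrip1 (136199069) was centred 0.265 kb upstream of the start. Col26a1, a collagen gene, held 4 of the region's sites within 4.23 kb, CTD-ind at 136753157, 136754149 and 136755104 and YmA-ind at 136757085. Their gaps were 0.992, 0.955 and 1.98 kb, and the site at 136755104 was the closest of the region to its neighbour below. Another 4 of the 8 sites assigned to Col26a1 lay beyond the 100 kb limit.

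Neighbours stood close together by the measure of the whole list. The median gap in the region was 8.36 kb, against 60.9 kb over all 7474 gaps and 37.2 kb on chromosome 5. Of the 31 gaps, 21 were under 12500 bp, where 21.9% of all gaps were, and 6 were under 2 kb, where 6.07% of all gaps were. Runs of 3 or more held 24 of the 32 sites (75%), against 15.2% of all sites. There were 4 such runs, with 12, 5, 4 and 3 sites. The region was chosen for its many sites, so nothing further is read from these shares.

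**Figure D2:**
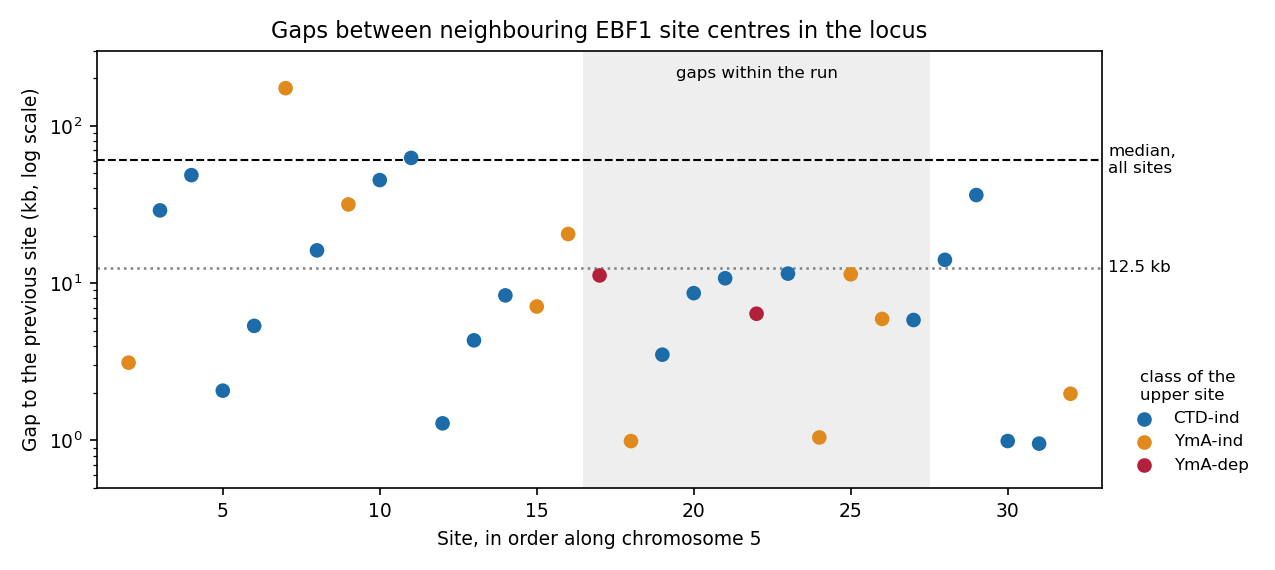
Gap from each site's centre to that of the previous site in kb (log scale), in order along chromosome 5, coloured by the class of the site at the gap's upper end. Gaps inside the run (shaded) were 0.991 to 11.5 kb, and 2 gaps of the region exceed the median of all sites (dashed, 60.9 kb).

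The run had the most sites and the widest span of the list's 325 runs of 3 or more, but it was not the tightest. It had 1.55 sites per 10 kb, and each of the 9 other runs with 6 or more sites was denser. Runs of 9 at Pde2a (27.0 kb) and Cyth1 (44.1 kb) had 3.34 and 2.04 per 10 kb. The runs of 7 at Snx5, at Wdr66 with Bcl7a, and at Ptma spanned 24.4, 32.3 and 37.9 kb. The 2 runs of 9 had 3 and 1 CTD-ind, 5 and 5 YmA-ind, and 1 and 3 YmA-dep sites. All 3 classes occurred in 7 of the 10 runs with 6 or more sites, the run at Myl10 among them. The rank by number of sites depends on the limit of 12500 bp. Under 10 kb the longest run of the region had 5 sites, against 9 for the longest in the list.

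**Figure D3:**
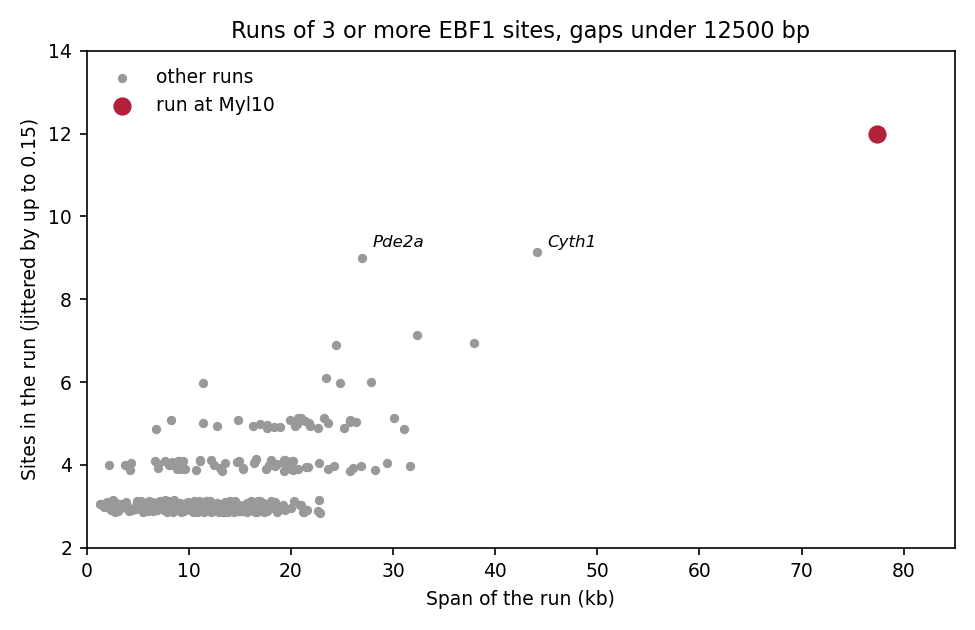
Number of sites against span in kb for the 325 runs of 3 or more sites with gaps under 12500 bp, each point 1 run, jittered vertically except the run at Myl10. The run at Myl10 stands alone at 12 sites and 77.4 kb, and the next in number, Pde2a and Cyth1, have 9 sites each.

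Windows of equal length gave another view. A window of 77.4 kb starting at each site in turn held a median of 2 sites, and 12 were reached at the run and at Cyth1. In windows of 100 kb the most was 14 in this region and 13 at Cyth1. In windows as long as the whole region (653.7 kb) the most was 34 starting in this region and 30 elsewhere, from Tnrc6c on chromosome 11, against a median of 5. The window with 34 ran past the limits of the region, which held 32. For the most elsewhere, windows that start near the region but outside it were left out. Among the 19388 spaces between neighbouring protein-coding genes, of which 10.3% held a site, 3 held more than the 14 of the Cux1 to Myl10 space. These were 336.7 kb or longer. The space between Adam6a and Zfp386 also had 14, over 2501 kb. Of 796 spaces of 100 to 150 kb, the one between Cux1 and Myl10 had the most sites, the next had 9 and the median was 0. Since the region was chosen for its many sites, nothing is read from these ranks.

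CTD-ind was the largest class in the region with 20 sites (62.5%, exact 95% binomial interval 43.7 to 78.9%), against 34.0% of all sites and 41.6% on chromosome 5. YmA-ind sites numbered 10 (31.25%, 16.1 to 50.0%, against 54.1%) and YmA-dep sites 2 (6.25%, 0.766 to 20.8%, against 11.9%). The intervals cover counting error only and treat sites as independent draws. The region was chosen with its classes in view and its sites lie close together, so nothing is read from these differences. Without the flanks, 12 of 22 sites were CTD-ind (54.5%, 32.2 to 75.6%). Inside the run the split was more even, with 5 of 12 CTD-ind (41.7%, 15.2 to 72.3%). Outside Cux1 and Myl10 and the space between them, 8 of the 10 flanking sites were CTD-ind. Both YmA-dep sites were between the genes.

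Along the region the 32 sites formed 16 unbroken stretches of 1 class each, some of a single site. Of 31 pairs of neighbouring sites 16 had the same class (51.6%), against 44.3% of all neighbouring pairs, and in the run 4 of 11 pairs did. The share of equal pairs also depends on the class shares, which differ between region and list, so nothing is read from this difference. Unbroken stretches of CTD-ind sites included 4 sites from Prkrip1 into the end of Cux1, 5 from inside Cux1 to the group upstream of it, and 5 from the end of Myl10 into Col26a1. Over the list, CTD-ind stretches of 5 or more numbered 36, and the longest had 11 sites. Of the 6 pairs closer than 2 kb, 3 were of 1 class and 3 were mixed, and 48.9% of all 454 such pairs were of 1 class.

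Sites at gene starts were counted next. A centre within 1 kb of a listed start was found for 3 of the 32 sites (9.38%, 1.98 to 25.0%), against 15.4% of the sites on chromosomes with listed starts. These were at Orai2, Prkrip1 and Gm30408. Of the 20 CTD-ind sites 2 were that close (10.0%, 1.23 to 31.7%), against 29.2% of CTD-ind sites in the list. Sites of the region were chosen together and lie close to each other, so nothing is read from these differences. For YmA-ind it was 1 of 10, against 9.20%, and for YmA-dep 0 of 2, against 4.28%. The median distance to a listed start was 18.8 kb for the region's CTD-ind sites and 7.01 kb for all of them. No start is listed for Col26a1. Its sites in the region, 3 of them CTD-ind, were therefore measured to Myl10, 59.1 to 63.1 kb away. In all, 14 sites lay inside a protein-coding gene and 11 inside no listed gene. The same shares over all sites are not given here, so nothing is read from these 2 counts.

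When each site goes to the shortest protein-coding gene that holds it, or else to the nearest within 100 kb, Cux1 received 13 and Myl10 12. At least 1 site was assigned to 19.6% of protein-coding genes, and 5 of 21521 had 12 or more. For Cux1, 6 sites were inside, 1 just beyond its far end and 6 in the space before its start, with 9 CTD-ind and 4 YmA-ind. For Myl10, 2 were inside, 8 in the space before it and 2 beyond its end, with 6 CTD-ind, 4 YmA-ind and 2 YmA-dep. Only nearness splits the 14 sites of the shared upstream space into 6 and 8. The assignment does not tell which gene, if either, a site acts on.

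Of the 6 other genes with 11 or more sites, all but Med13l carried most of them in the gene body. Inside the gene lay 11 sites at Zmiz1, a transcriptional coregulator, and 10 at Cyth1, which encodes a guanine nucleotide exchange factor of ARF proteins. Med13l, a subunit gene of the Mediator kinase module, held 6 of its 12, Cmip 9, Hivep3 11 and Pde2a, a cyclic nucleotide phosphodiesterase gene, 11. The smallest share inside among these 8 genes was that of Myl10. It is also the shortest of them, with a span of 13.0 kb, and the next, Cyth1, spans 84.4 kb. With a limit of 10 kb around the gene span, 7 sites were left for Cux1 and 4 for Myl10.

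**Figure D4:**
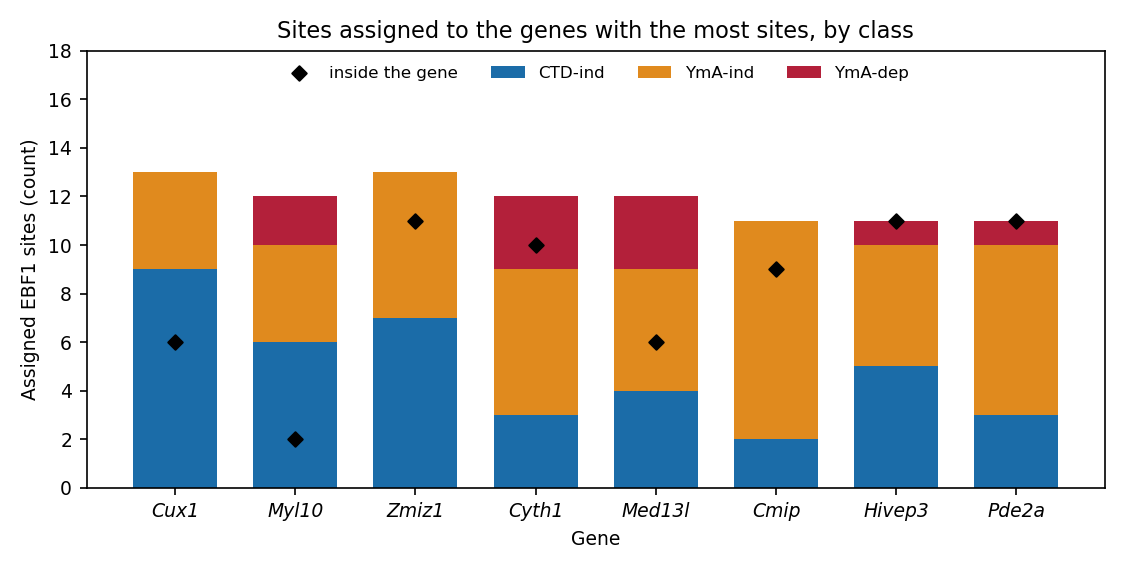
Assigned EBF1 sites per gene (stacked bars, by class) for Cux1, Myl10 and the 6 other genes with 11 or more, with diamonds at the number of sites centred inside the gene. Cux1 has 6 of 13 inside and Myl10, the shortest of these genes, 2 of 12, while all 11 of Hivep3 and of Pde2a are inside.

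Relatives of the 2 genes were counted from lists of their families. Among 7 genes with CUT domains, 4 had an assigned site (19.6% of all protein-coding genes did): Cux1 with 13, and Cux2, Onecut3 and Satb1 with 1 each. Cux1 is among the 4 by choice, since the region was chosen for its sites, so nothing is read from this share. The site at Cux2, the closest paralog of Cux1, was YmA-ind and inside the gene, 134.8 kb from a listed start. The one at Satb1, a chromatin organiser of lymphocytes, was CTD-ind and 70.9 kb outside. Onecut1 and Onecut2 had none. Sites inside or within 10 kb were found at 2 of the 7, against 22.3% of all genes. These were Cux2 and Cux1, the latter again by choice.

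Of 12 myosin light chain genes, 4 had an assigned site, again against 19.6% of all protein-coding genes. These were Myl10 with 12, and Myl4, Myl6b and Myl9 with 1 YmA-ind site each. Myl10 is counted by choice, as Cux1 was, so nothing is read from this share either. The site of Myl9, the smooth muscle regulatory chain, was inside the gene and 2.33 kb from its listed start. Inside or within 10 kb the number was 5, Myl10 included (22.3% of all genes had such a site). The added gene was Myl6, next to Myl6b. The site nearest to Myl6b, 3.78 kb from it, also lay 8.58 kb from Myl6, so 1 site counted for both. The cardiac and skeletal chains Myl1, Myl2, Myl3, Myl7 and Mylpf and the nonmuscle chains Myl12a and Myl12b had none assigned. Of the 4 myosin light chain kinase genes only Mylk4 had any (19.6% of all genes did), with 1 YmA-ind and 1 YmA-dep site. Without read depth, a gene without a site cannot be called unbound.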

How the data were processed

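ChIP-seq sites of EBF1 were taken from the list deposited with 1 of 5 libraries, the anti-EBF1 ChIP with EBF1 wt. Bowtie2, SAMtools, deepTools and GRCm38 (mm10) are named, per the submitters' processing notes. The sources used here state neither the peak caller and its threshold nor whether samples were pooled. The deposited values are positions in bp and a class, with no count, signal or p-value, so the depth and the precision of single sites are unknown.

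Positions are printed 1-based, and a site counts by its centre. Genes came from a RefSeq table of GRCm38.p6 (49209 genes used, 345 on scaffolds left out, 21521 protein-coding). Starts, strands and sequences came from a RefSeq promoter table with 32851 starts. It lists no start on the chromosome of 198 sites, which were left out of distances to starts. Densities use the length between the outermost protein-coding genes. A run is 3 or more sites with gaps under 12500 bp between centres. Intervals are exact (Clopper-Pearson) 95% binomial intervals.

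The genes named are Cux1, Myl10, their neighbours in the region, CUT (1 member is not reported here by name) and myosin light chain genes, the 5 other genes with the most sites (6 with ties) and the genes of the next runs. The region and the lists were chosen with earlier results of these data known. No test between groups was possible with 1 library each. Python 3.11.15, pandas 2.3.3 and scipy 1.17.1 were used, and the run, assignment and motif functions were tested on simulated data. Alternatives were other flanks, distance limits, gap limits, overlap rules and a shorter motif. The number of libraries with a site list, 1, limits every statement to that list.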

Additional observations from a re-analysis of the deposited data

How the results depend on the processing

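Of 34 alternative values, 25 were within 1.5 times the value reported and 9 were not. With no flank the region held 22 sites and with 200 kb 39, and the CTD-ind count was 12 with no flank. Counting sites inside or within 10 kb, Cux1 had 7 and Myl10 4, and Myl10 had 6 with a limit of 20 kb. By the same 10 kb rule 2 CUT genes and 0 myosin light chain kinase genes had a site. The run of 12 rested on the 12500 bp limit. Under 10 kb it broke into 5 pieces, the largest of 4 sites, and the longest run of the region had 5 sites, against 9 for the longest in the list. Under 5 kb the longest of the region had 4 sites, at Col26a1, against 5 in the list. At both limits the region thus no longer held the longest run. Under 25 kb it grew to 18 sites over 133.1 kb and was the longest in the list. Gaps measured from end to start left it at 12 and gave 327 runs. Over the 5 windows at the listed starts of Cux1, Myl10 (all 3 starts) and Prkrip1, the full motif matched 0 and the core 3. These changes follow from the limits themselves. The missing depth and scores limit all counts. No paired analysis was possible because each group holds 1 library and no result comes from a test.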
